A study of Mus musculus with 10 samples.

Results

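The genes described here are the 8 Gimap genes of the mouse, Gimap1, Gimap3, Gimap4, Gimap5, Gimap6, Gimap7, Gimap8 and Gimap9, which were chosen by name among the 20617 gene rows of a table of normalized counts. The table covers spleen CD3+ T cells of Nf1OPG mice, 5 libraries from PBS-treated controls (replicates 1 to 5) and 5 libraries from mice with ovalbumin-induced experimental asthma (OVA, replicates 6 to 10). All mice of both groups carried Nf1 flox/mut with GFAP-Cre on a C57BL/6 background, a model of optic glioma in which Nf1 is lost in neuroglial progenitors while the T cells retain a heterozygous Nf1 mutation. OVA mice were injected intraperitoneally with 0.5 mL of ovalbumin at 16 µg/mL in aluminum hydroxide at 2 mg/mL, weekly for 2 weeks, and the study's methods add intranasal challenge, while controls received PBS. The labels give no age or sex, and whether a library held 1 mouse or pooled mice is not stated. The p-values therefore measure the spread between these libraries.

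GIMAP proteins are GTPases related to the septins, and are expressed mainly in lymphocytes. They sit on membranes of the endoplasmic reticulum, mitochondria, lysosomes and lipid droplets, and loss of some members shortens the life of resting T and B cells. Gimap1 and Gimap5 are needed for the survival of peripheral lymphocytes, and loss of Gimap5 gives lymphopenia in mice and rats. Gimap3 is the closest relative of Gimap5, Gimap4 modulates T cell death, Gimap6 binds the autophagy protein GABARAPL2, Gimap7 can stimulate GTP hydrolysis of a partner GIMAP, and Gimap8 carries several GTPase domains in a row. Gimap9 is less studied.

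The family lies in 1 cluster of 123.6 kb on chromosome 6 (GRCm38, GENCODE M21). From the lowest coordinate the order is Gimap8, Gimap9, Gimap4, Gimap6, Gimap7, Gimap1, Gimap5 and Gimap3. Gimap6 and Gimap3 are on the minus strand and the other members on the plus strand. The P loop is the stretch that grips the phosphates of the nucleotide, and the 24 coding bases that encode it are shown for every member. Capitals mark the codons of the invariant glycine and of the closing glycine, lysine and serine. All of these stretches are exonic and coding.
Gimap1 (chr6:48742552-48742575, plus strand, exon 3 of 3): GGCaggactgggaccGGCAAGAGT
Gimap3 (chr6:48765887-48765910, minus strand, exon 5 of 5): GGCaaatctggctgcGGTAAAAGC
Gimap4 (chr6:48690421-48690444, plus strand, exon 3 of 3): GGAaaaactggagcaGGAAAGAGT
Gimap5 (chr6:48752594-48752617, plus strand, exon 3 of 3): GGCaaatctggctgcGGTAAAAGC
Gimap6 (chr6:48702750-48702773, minus strand, exon 3 of 3): GGGaaaacaggaagcGGGAAAAGT
Gimap7 (chr6:48723524-48723547, plus strand, exon 2 of 2): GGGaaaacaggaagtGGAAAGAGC
Gimap8, loop 1 (chr6:48650256-48650279, plus strand, exon 2 of 5): GGGaaacagggcgcaGGCAAAAGT
Gimap8, loop 2 (chr6:48656119-48656142, plus strand, exon 4 of 5): GGGaagcgtggtgttGGGAAAAGT
Gimap8, loop 3 (chr6:48658746-48658769, plus strand, exon 5 of 5): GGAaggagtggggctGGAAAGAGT
Gimap9 (chr6:48677523-48677546, plus strand, exon 2 of 2): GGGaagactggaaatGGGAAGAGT
Gimap8 encodes 3 P loops and every other member 1. Gimap3 and Gimap5 have the same 24 bases. Over the 28 pairs of members the coding sequences were identical at a median of 49.9% of aligned positions. Gimap3 and Gimap5 were the most similar pair, at 87.1%, followed by Gimap7 and Gimap9 at 65.1%. Gimap3 and Gimap5 were also the only pair with a stretch of 75 bases in common, which covers 3.32% of the 75-base windows of Gimap3 and 1.97% of those of Gimap5, so that few reads of this length could come from either. The read length is not given in the sources used here. Further overlaps bear on single members. Gimap1os, a noncoding gene on the opposite strand, matches 30.5% of the 75-base windows of Gimap1. If the libraries do not mark strand, their reads cannot be told apart there. The protein-coding gene Gm28053 (chr6:48718607-48752644, plus strand) spans Gimap7, Gimap1 and Gimap5 and shares 3.95% of the windows of Gimap1, 1.90% of those of Gimap5 and 0.310% of those of Gimap7.

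The names in the deposited table are out of step with the values, and the Gimap names stand 7 rows below the values that were taken for them. This distance was set beforehand, with earlier results of these data known. An alignment of row means with gene annotation gave the same distance. In it, Gimap names had no feature of their own and no treatment group was used. The alignment placed each of the 8 members 7 rows up from its name, at a probability of 0.995 or more. The rows that carry the Gimap names had means over 10 libraries between 149.5 and 792.5 normalized counts (median 335.9). The rows 7 above had means between 782.5 and 20649 (median 3535). At 6 rows the lowest mean was 165.6 and at 8 rows 707.9. The 8 members and Gimap1os form a block of 9 rows, and the rows just before and after it are lower, at 707.9 and 165.6. Gimap8, at 782.5, does not stand out from nearby rows, which reached 790.8, 792.5 and 6951. The row means were the input of the alignment, so this block is no separate check of the distance.

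**Figure D1:**
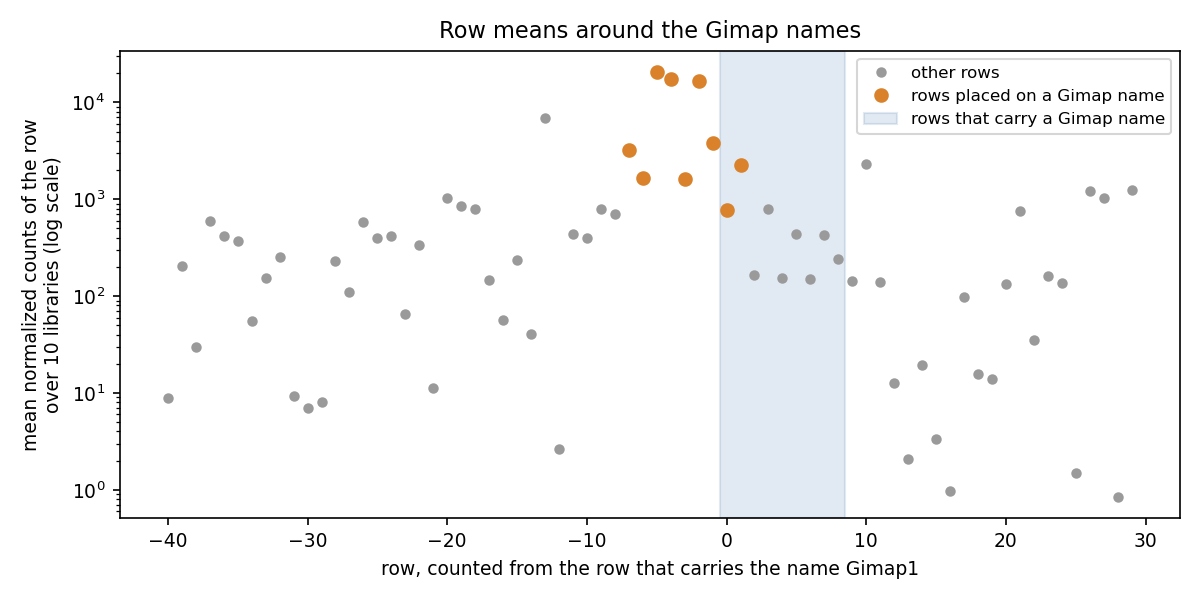
Mean normalized counts over the 10 libraries (log scale) of each row of the table, by position from the row that carries the name Gimap1. Orange points are the 9 rows placed on Gimap names (the 8 members and Gimap1os), which end 7 rows above the last row of the shaded band of Gimap names and include the highest rows of the plot.

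The libraries held between 6835697 (PBS replicate 3) and 29915783 (OVA replicate 7) recovered reads. All 8 T cell markers, CD3 chains, surface receptors and proximal T cell receptor signalling genes, were detected in every library, and their summed level was 67897 to 125449 normalized counts in PBS and 77413 to 105563 in OVA. Other cells were also present. Neutrophil markers summed to 6004 to 20431 in PBS and to 9372 to 84585 in OVA, highest in OVA replicate 6, with all 6 markers higher on average in OVA (median log2 difference 1.74). Most of the PBS sum came from the row placed on Mpo, with a PBS mean of 10544, against 1173 for S100a8 and 2.25 for Ly6g. B cell markers summed to 753.4 to 2503 in PBS and 799.2 to 6799 in OVA, again highest in OVA replicate 6, and all 7 were higher on average in OVA (median 1.13). The 6 stromal markers summed to 7.75 to 60.9 in PBS and to 112 to 185 in OVA, with a median log2 difference of 2.42. The groups did not overlap for 3 of them, named here after their values were seen (Dcn, Pdgfrb and Serping1), against 1.78% of all genes. All 7 erythroid markers were lower on average in OVA (median -1.37), with sums of 3118 to 16224 in PBS and 508.2 to 9944 in OVA. Plasma cell markers had a median of -0.75, with sums of 14457 to 88291 in PBS and 8348 to 27348 in OVA. Of these markers, 1 was higher and 3 were lower on average in OVA. Most of the PBS sum came from the row placed on Jchain, with a PBS mean of 52626. Xbp1 averaged 1305 in PBS, Sdc1 186 and Prdm1 129. Endothelial markers had a median of 0.68, with 5 higher and 1 lower on average in OVA. Among them Pecam1 had 1025 to 2157 normalized counts in PBS and 1798 to 2300 in OVA. Vwf reached 66.5 and Tek 22.8, and Cdh5, Kdr and Emcn reached at most 14.4 in any library. The NK cell (0.12), macrophage (0.14), platelet (0.17) and CD4 and CD8 (0.09) marker lists had medians closer to 0. Single genes of these lists differed more. NK cell markers ran from -0.23 to 0.96, with 2 higher and 2 lower on average in OVA. Macrophage markers ran from -0.11 to 0.95, with 4 higher and 2 lower. Platelet markers ran from -1.02 to 0.67, with 2 higher and 2 lower. No gene of these lists passed limma's adjusted p. DESeq2 on recovered reads called 4 of them, named here for that, where it called 0.894% of 18678 genes. The stromal Dcn (DESeq2 adjusted p = 0.000191) had at most 2.77 normalized counts in PBS, which is 1 read in PBS replicate 3 and below the floor of 3 reads, and 6.64 to 31.3 in OVA. The study picked Dcn from its RNA sequencing of these T cells. It reported higher Dcn RNA after OVA or house dust mite in T cells of spleen, neck lymph nodes and optic nerve. For OVA it also reported higher Dcn RNA in splenic CD4+ and CD8+ T cells, and higher decorin in T cell medium. T cells of patients with asthma were likewise reported to have more DCN RNA. The others were the plasma cell gene Jchain (log2 difference -1.71, DESeq2 adjusted p = 0.00426), the neutrophil gene Ngp (4.04, DESeq2 adjusted p = 0.0232) and the B cell gene Cr2 (4.15, DESeq2 adjusted p = 0.0359). The groups overlapped for Jchain, Ngp and Cr2. Jchain had 13556 to 86297 normalized counts in PBS and 7328 to 25812 in OVA. Ngp had 144 to 1133 in PBS and 131 to 28611 in OVA. Cr2 had 0 to 15.9 in PBS, with 2 libraries at 0, and 11.4 to 198 in OVA. The part of these cells in the Gimap values was not tested.

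Gimap transcripts were abundant in every library. The 8 members together took between 0.259% (PBS replicate 3) and 0.410% (PBS replicate 1) of all normalized counts. Levels are compared between genes per kb of the principal coding transcript, as normalized counts per kb, mean ± SD over 10 libraries. Gimap6 had 10460 ± 1847, Gimap3 9627 ± 2603 and Gimap4 9575 ± 1269. Gimap7 followed at 3027 ± 578, Gimap1 at 2162 ± 516, Gimap9 at 1638 ± 238 and Gimap5 at 830 ± 162, and Gimap8 was lowest at 249 ± 35.2. The top 3 are not separated from each other: Gimap6 exceeded Gimap3 in 8 of 10 libraries, and Gimap3 exceeded Gimap4 in 4 of 10. Further down the order was steady. Gimap4 exceeded Gimap7, Gimap7 exceeded Gimap1, Gimap9 exceeded Gimap5 and Gimap5 exceeded Gimap8 in 10 of 10 libraries each, and Gimap1 exceeded Gimap9 in 9 of 10. Divided by all annotated exons joined together, the order at the top changed to Gimap4 (9403), Gimap3 (8013) and Gimap6 (4769), and Gimap9 (1381) passed Gimap1 (1051). Gimap3, Gimap7, Gimap5 and Gimap8 had the same rank under both lengths.

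The same 3 genes made up most of the family's per-kb level in both groups. Gimap6, Gimap3 and Gimap4 together accounted for 79.0% ± 1.28 in PBS (SD, n = 5; range 77.1 to 80.5) and 78.7% ± 0.789 in OVA (n = 5; 77.8 to 79.6). Within them, the share of Gimap6 was nearly constant, at 28.0% ± 0.720 in PBS and 27.6% ± 0.642 in OVA. Gimap3 made up 27.0% ± 3.90 in PBS and 23.7% ± 1.48 in OVA, and Gimap4 24.05% ± 2.92 in PBS and 27.4% ± 2.12 in OVA. The ratio of Gimap4 to Gimap3 in normalized counts was 0.574, 0.566, 1.02, 0.803 and 0.899 in PBS replicates 1 to 5, and 1.07, 0.802, 1.00, 1.12 and 0.906 in OVA replicates 6 to 10. PBS replicates 1 and 2 had the lowest ratios, and the other 3 PBS libraries lay within the OVA range. The shares and this ratio were chosen for description and not tested.

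The members were expressed at higher levels than most of their chromosomal neighbours. Per kb of all exons, they ranked between percentile 81.1 (Gimap8) and 98.9 (Gimap4) of 18511 genes, with a median of 1517 normalized counts per kb. The 13 other protein-coding genes that start within 300 kb of the cluster and could be placed had a median of 11.8 per kb and ranked between percentiles 0.254 and 82.8. Only Tmem176b (243), one of a pair of membrane proteins encoded beyond Gimap3, was above the lowest member, Gimap8 (211). Gm28053, which lies inside the cluster, had 38.8 per kb, and Gimap1os had 535. None of the 13 neighbours passed limma's adjusted p between OVA and PBS, and their median log2 difference was 0.09. The neighbours with the largest differences, Rarres2, Aoc1, Sspo and Atp6v0e2, averaged under 5 normalized counts in both groups, near the floor of 3 reads, and no fold is given for them.

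**Figure D2:**
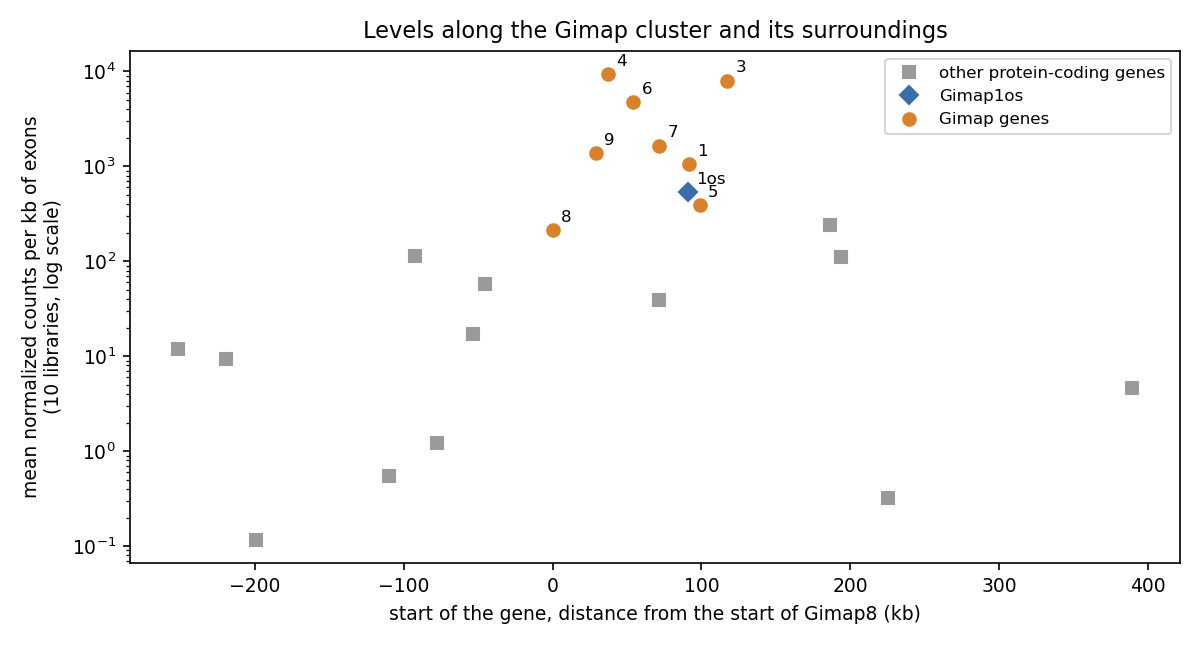
Mean normalized counts per kb of annotated exons over the 10 libraries (log scale), by the distance of each gene's start from the start of Gimap8 in kb. The 8 Gimap genes (orange, numbered by member) lie between 211 and 9403 per kb, Gimap1os (blue) at 535, and the 13 other protein-coding genes (grey) between 0.117 and 243.

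The comparison of OVA with PBS asks which T cell transcripts change with experimental asthma. For the Gimap genes the groups overlapped throughout. None of the 8 members passed limma's adjusted p of 0.05, where 0.00494% of 20249 genes tested did, none had an unadjusted p under 0.05 (9.77% of all genes), and none had groups that did not overlap (1.78% of all genes). An unadjusted p under 0.05 was reached by 1 member in 3 alternatives, Gimap4 with quantile normalization and with a common total, and Gimap3 without PBS replicate 3. DESeq2 on recovered reads called none of them either, against 0.894% of 18678 genes, and edgeR none, against 0.00988%. As a share of 8, a count of 0 differs little from these backgrounds. Of the members, 4 were higher on average in OVA and 4 lower, with log2 differences from -0.21 to 0.16. Their median log2 difference was -0.03, and that of all genes was 0.04. This split depended on the scaling: with each library set to the same total, 7 members were higher and 1 lower, with a median of 0.08, while the median of all genes moved to 0.15. With quantile normalization 6 were higher and 2 lower, with a median of 0.06. The median size of the difference, regardless of direction, was 0.11 for the members and 0.25 for all genes. The members lie at percentiles 83.3 to 99.4 of mean level, so this comparison is not matched for level. The 8 T cell markers had log2 differences from -0.20 to 0.10. In bulk RNA, fewer T cells in a library and less Gimap RNA per T cell cannot be told apart.

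The pair needed for lymphocyte survival had slightly higher means in OVA. Gimap1 was measured at 3365, 3455, 2052, 2939 and 3437 normalized counts in PBS replicates 1 to 5, and at 3334, 4885, 3635, 2698 and 2482 in OVA replicates 6 to 10. PBS replicate 3 was lowest and OVA replicate 7 highest, and the other 8 libraries were interleaved. The mean was 3050 ± 596 (SD, n = 5) in PBS and 3407 ± 949 (n = 5) in OVA, a log2 difference of 0.14 (SE 0.19) with a limma adjusted p of 0.840 and an exact permutation p of 0.571. Without OVA replicate 7 this difference was 0.003.

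Gimap5 had 1821, 1758, 953, 1688 and 1625 normalized counts in PBS, and 1406, 2147, 1798, 1421 and 1600 in OVA. The low value is that of PBS replicate 3, where it rests on 344 reads. The means were 1569 ± 352 and 1674 ± 309, a log2 difference of 0.11 (SE 0.18), with a limma adjusted p of 0.876 and an exact permutation p of 0.659. Without PBS replicate 3 the difference changed sign, to -0.0587.

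Gimap3, the close relative of Gimap5, had the largest difference of the family by size-factor scaling and the largest residual SD. With each library at the same total its difference was -0.10, smaller than those of Gimap4 (0.27), Gimap1 (0.26) and Gimap5 (0.22), and with quantile normalization it was -0.07, against 0.30 for Gimap4. Its values were 33259, 23576, 13564, 20624 and 21260 in PBS, and 15171, 23387, 20259, 15792 and 19596 in OVA. The highest and the lowest library, PBS replicates 1 and 3, were both controls, and all OVA libraries lay between them. The means were 22457 ± 7103 and 18841 ± 3392, a log2 difference of -0.21 (SE 0.21), with a limma adjusted p of 0.768 and an exact permutation p of 0.437. The difference was -0.0573 without PBS replicate 1 and -0.381 without PBS replicate 3.

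Gimap4 went the other way. It had 19104, 13351, 13833, 16567 and 19123 normalized counts in PBS, and 16225, 18760, 20258, 17752 and 17755 in OVA. PBS replicates 2 and 3 were below every OVA library, while PBS replicates 1 and 5 were above all but 1 of them. The means of 16396 ± 2768 and 18150 ± 1486 differed by 0.16 on the log2 scale (SE 0.14), with a limma adjusted p of 0.741, the lowest of the family, and an exact permutation p of 0.262. The difference was 0.303 with quantile normalization (limma adjusted p = 0.433), 0.272 with a common total (limma adjusted p = 0.393) and 0.0897 without PBS replicate 2.

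Gimap6, the partner of the autophagy machinery, had 22287, 15366, 12327, 17352 and 18148 normalized counts in PBS, and 14127, 19437, 17686, 13890 and 16105 in OVA. As for Gimap3, PBS replicate 1 was highest and PBS replicate 3 lowest. The means were 17096 ± 3669 and 16249 ± 2362, a log2 difference of -0.06 (SE 0.16) with a limma adjusted p of 0.930 and an exact permutation p of 0.762.

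Gimap7 had 5522, 3445, 3730, 3803 and 3369 in PBS, and 3133, 4256, 3959, 2962 and 4238 in OVA. PBS replicate 1 stood above the rest, and the other 4 controls lay within the OVA range. The means were 3974 ± 885 and 3710 ± 619, and the log2 difference was -0.09 (SE 0.16; limma adjusted p = 0.884; exact permutation p = 0.643).

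Gimap8, the member with 3 P loops, had 884, 596, 665, 806 and 992 in PBS, and 741, 811, 824, 752 and 755 in OVA. All 5 OVA libraries lay inside the range of the controls. The group means were 789 ± 161 and 776 ± 38.1 normalized counts, and the log2 difference was 0.00 (SE 0.15; limma adjusted p = 0.999; exact permutation p = 1).

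Gimap9 had 2612, 1850, 1994, 2613 and 2719 in PBS, and 2016, 2102, 2417, 2456 and 1895 in OVA. Of the controls, 3 were above every OVA library and PBS replicate 2 below all of them. The means were 2358 ± 403 and 2177 ± 248, and the log2 difference was -0.10 (SE 0.14; limma adjusted p = 0.841; exact permutation p = 0.421). The antisense gene Gimap1os, no member of the list of GTPases, had 1658 ± 437 in PBS and 1657 ± 283 in OVA (log2 difference 0.02; limma adjusted p = 0.985).

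**Figure D3:**
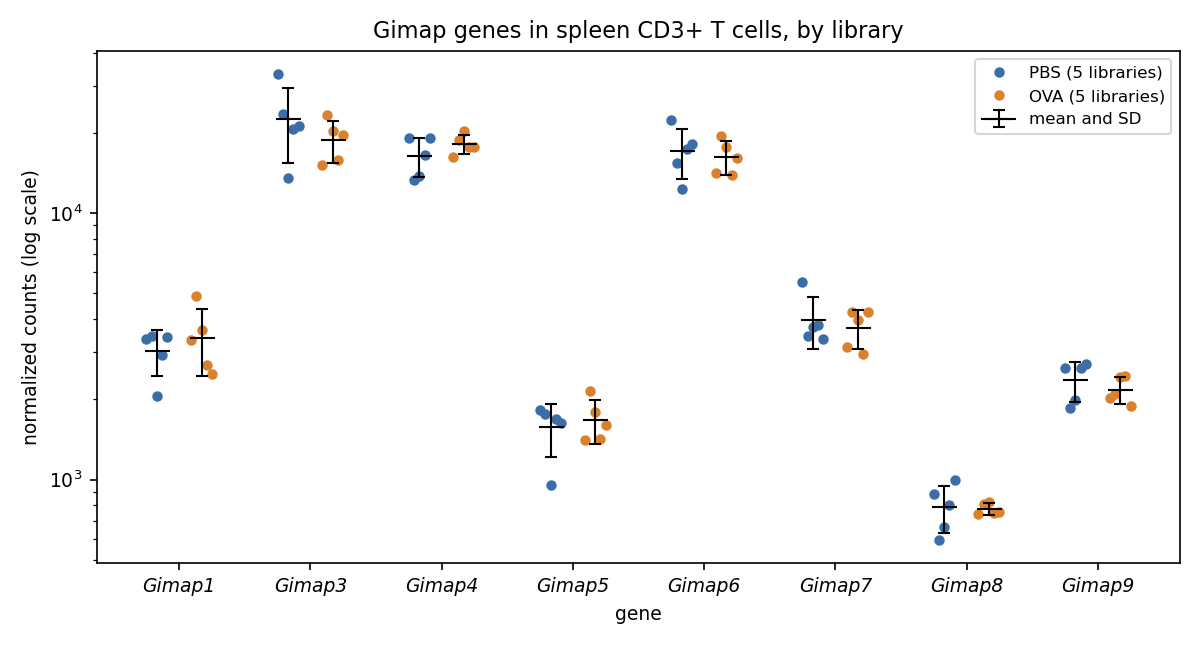
Normalized counts (log scale) of each Gimap gene in the 5 PBS (blue) and 5 OVA (orange) libraries, in replicate order within each group, with the mean and SD in black. The groups overlap for all 8 genes, and Gimap3, Gimap4 and Gimap6 lie above the others at 12327 to 33259.

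The intervals state what size of change these libraries leave room for. Over the 8 members, the 95% confidence intervals of limma ran from -0.66 (Gimap3) to 0.56 (Gimap1) on the log2 scale, or from 0.633-fold to 1.47-fold. The median residual SD of the members was 0.27 on the log2 scale and that of all genes, which include genes of far lower level, 0.49. The fewest reads behind any of these values were 240, for Gimap8 in PBS replicate 3. The smallest p that the exact permutation test of 5 against 5 libraries can give is 0.00794, and that of the members ranged from 0.262 to 1.

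**Figure D4:**
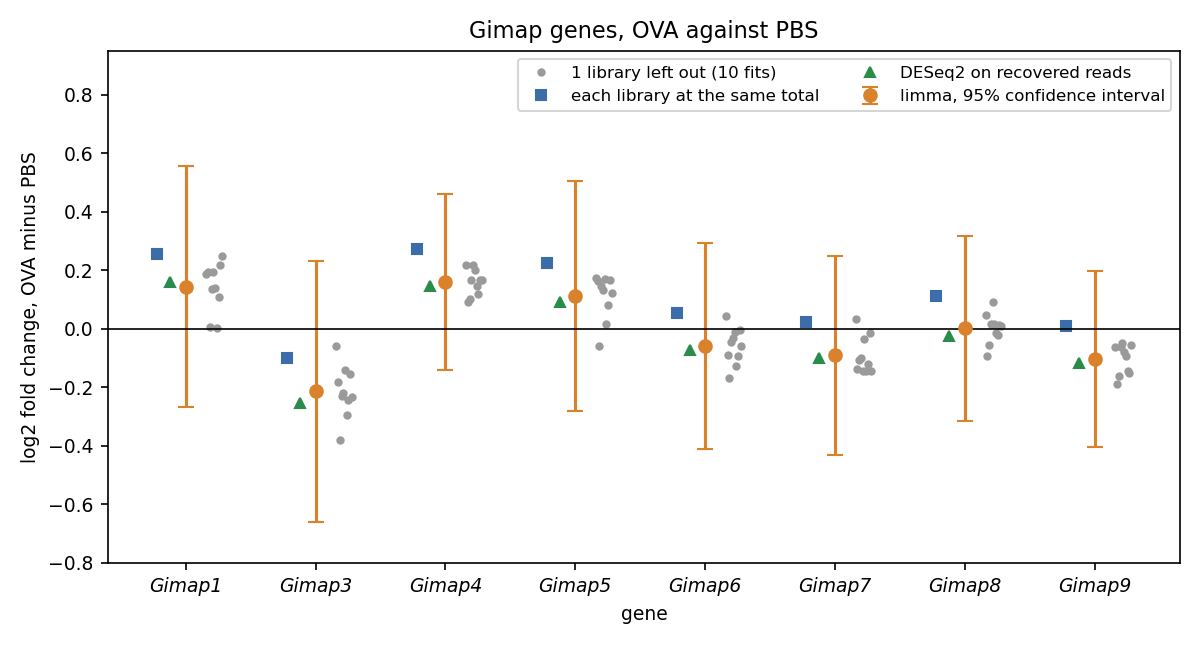
Log2 fold change (OVA minus PBS) of each Gimap gene by limma with its 95% confidence interval (orange), beside the values with every library set to the same total (blue squares), by DESeq2 on recovered reads (green triangles) and with 1 library left out at a time (grey). All 8 intervals include 0, and the values with 1 library left out lie between -0.381 and 0.247.

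The libraries differed in the level of the family as a whole more than the groups did. Summed over the 8 members, normalized counts were 67688 ± 14334 in PBS (range 49118 to 88855) and 64985 ± 8396 in OVA (56152 to 75785). PBS replicate 1 was above the 10-library mean for 8 of 8 members and OVA replicate 8 likewise, whereas PBS replicate 3 was below it for every member. On the log2 scale, the mean of the members relative to their 10-library means was 0.32, -0.09, -0.38, 0.04 and 0.13 in PBS replicates 1 to 5 and -0.16, 0.23, 0.13, -0.15 and -0.06 in OVA replicates 6 to 10. The T cell markers moved alongside, at 0.44, -0.11, -0.47, 0.22 and 0.03 in PBS and at -0.08, 0.21, 0.13, -0.30 and -0.06 in OVA. PBS replicates 1 and 3 were thus the extremes of both. The highest library exceeded the lowest 1.81-fold for the summed members and 1.25-fold for the members divided by the summed T cell markers. That ratio was 0.704 ± 0.0575 in PBS (0.606 to 0.756) and 0.708 ± 0.0405 in OVA (0.643 to 0.746).

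Members followed this shared course to different degrees. The root mean square distance of a member's centred log2 profile from the family mean was smallest for Gimap6 (0.0550), then Gimap4 (0.139), Gimap8 (0.1504), Gimap5 (0.161), Gimap9 (0.189), Gimap7 (0.195), Gimap3 (0.204) and Gimap1 (0.223). Gimap6 thus tracked the family most closely, although each member's own values enter the mean. Among 9084 other genes that averaged 100 normalized counts or more, the 5 nearest to the family mean over the 10 libraries were Rab11b-ps2 (0.0463), a pseudogene, Sp100 (0.0640), a nuclear body protein, Leprotl1 (0.0685), a membrane protein, Stat4 (0.0751), the transcription factor downstream of interleukin-12, and Kat5 (0.0774), a histone acetyltransferase. The median distance of all genes compared was 0.321. These genes were picked for their likeness, so their distances are a description.

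**Figure D5:**
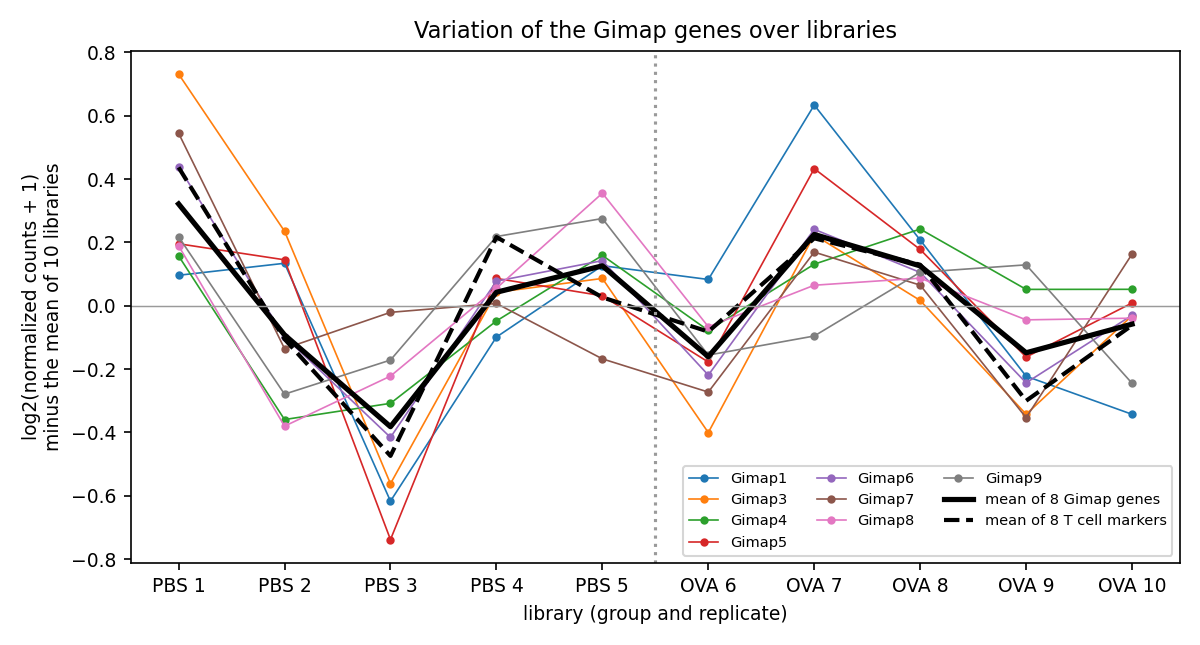
Log2 normalized counts of each Gimap gene minus its mean over 10 libraries (thin lines), by library, with the mean of the 8 Gimap genes (solid black) and of the 8 T cell markers (dashed black); a dotted line separates PBS from OVA. Both means are highest in PBS replicate 1 (0.32 and 0.44) and lowest in PBS replicate 3 (-0.38 and -0.47).

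The sequence before the start sites of the members was searched for letters bound by lymphocyte transcription factors. The TATA letters, which are not specific to lymphocytes, were searched for as well. The windows reach from 250 to 31 bases before the RefSeq start (GRCm38.p6), 220 bases each, and both strands were read. The RUNX core TGTGGT occurred in 3 of the 8 windows (Gimap1, Gimap4 and Gimap7) and in 12.7% of 32851 windows of all genes. The ETS letters GGAAGT occurred in the window of Gimap5 only, against 16.5% of all windows. The FOXO letters GTAAACA occurred in that of Gimap3 (2.81% of all) and the TATA letters TATAAA in that of Gimap6 (9.95%), on either strand. The TCF and LEF letters CTTTGA (12.7% of all) and the GATA letters AGATAA (9.04%) were in none. GC content was between 42.7% and 60.5%, with a median of 51.8% over all windows. The 4 windows with RUNX or ETS letters are shown, and capitals mark these letters on either strand.
Gimap1 (chr6:48738797-48739016, plus strand): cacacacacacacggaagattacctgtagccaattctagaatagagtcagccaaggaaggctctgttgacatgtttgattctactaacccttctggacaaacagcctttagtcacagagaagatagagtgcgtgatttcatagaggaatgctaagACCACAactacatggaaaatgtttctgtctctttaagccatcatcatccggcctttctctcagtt
Gimap4 (chr6:48684328-48684547, plus strand): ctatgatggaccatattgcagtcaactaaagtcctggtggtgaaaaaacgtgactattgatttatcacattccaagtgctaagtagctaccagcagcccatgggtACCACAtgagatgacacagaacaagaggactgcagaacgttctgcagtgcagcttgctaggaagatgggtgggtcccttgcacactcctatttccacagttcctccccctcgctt
Gimap7 (chr6:48718371-48718590, plus strand): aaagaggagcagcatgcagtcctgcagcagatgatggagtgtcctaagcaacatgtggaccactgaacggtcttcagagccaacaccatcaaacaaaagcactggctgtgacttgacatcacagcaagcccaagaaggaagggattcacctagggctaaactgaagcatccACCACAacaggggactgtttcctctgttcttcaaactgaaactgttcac
Gimap5 (chr6:48745947-48746166, plus strand): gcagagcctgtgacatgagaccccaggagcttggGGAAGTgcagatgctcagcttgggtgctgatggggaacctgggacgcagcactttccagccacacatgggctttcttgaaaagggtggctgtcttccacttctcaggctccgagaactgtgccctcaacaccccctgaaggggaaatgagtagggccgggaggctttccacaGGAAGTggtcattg
The match in each of the 3 RUNX windows reads ACCACA, the core on the opposite strand. The windows of Gimap3, Gimap6, Gimap8 and Gimap9 hold neither RUNX nor ETS letters.

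Of the genes that work with the family, none passed limma's adjusted p in either direction. Gimap3 and Gimap5 have been linked to Bcl2 proteins, the regulators of mitochondrial cell death. For the 8 Bcl2 family genes the median log2 difference was -0.22, with 3 higher and 5 lower on average in OVA. Bcl2, the survival factor of resting T cells, had 3598 ± 951 normalized counts in PBS and 4961 ± 1324 in OVA (log2 difference 0.46; limma adjusted p = 0.509). Bak1, a pore-forming killer protein, differed by 0.42 (adjusted p = 0.610), and the death-promoting Bbc3 and Bid by -0.40 (adjusted p = 0.8002) and -0.31 (adjusted p = 0.615), all by limma.

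Among 9 autophagy genes, 1 was higher on average in OVA and 8 were lower, with a median log2 difference of -0.20. Gabarapl2, which encodes the protein that Gimap6 binds, had 2316 ± 279 normalized counts in PBS (2084 to 2785) and 1983 ± 61.6 in OVA (1921 to 2069), with no overlap between the groups, a log2 difference of -0.22 and an exact permutation p of 0.00794. Its limma adjusted p over all genes was 0.555, and non-overlapping groups were found for 1.78% of all genes. The other large differences in the list were -0.46 for Map1lc3a (limma adjusted p = 0.768), -0.26 for Gabarap (adjusted p = 0.568) and -0.23 for Ulk1 (adjusted p = 0.793).

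Genes of naive, resting T cells had a median log2 difference of 0.09 over 9 genes placed of 10, with 7 higher and 2 lower on average in OVA. Il7r, the receptor for the survival cytokine interleukin-7, could not be placed with sufficient probability and is not reported. S1pr1, the receptor for exit into blood, differed by 0.19 (limma adjusted p = 0.792), Klf2, a quiescence factor, by -0.18 (adjusted p = 0.713), Foxp1 by 0.18 (adjusted p = 0.771) and Foxo1 by 0.15 (adjusted p = 0.816).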

How the data were processed

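RNA of spleen CD3+ T cells was sequenced on an Illumina HiSeq (TruSeq kit) for 5 PBS and 5 OVA libraries, grouped by the treatment label. The authors demultiplexed reads with bcl2fastq, aligned them with STAR 2.6.1d (Ensembl assembly, build mm10), counted genes in Partek Flow 9.0 and scaled each library with a size factor (median ratio). What the authors deposited is therefore a normalized count (signal). Reads were recovered by dividing each library by its smallest value above 0, and at least 99.78% of values came out whole within 0.1; 3 reads correspond to 1.88 to 8.31 normalized counts, which covers counting error only. No column of values was left out.

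Names were placed on values by a hidden Markov model over row distances, fed by a random forest on gene annotation (scikit-learn 1.9.0). It placed 91.68% of rows with a probability over 0.9, and genes other than members were named only at 0.9 or more. In a simulated table with 24 names without values, 98.48% of rows were placed exactly. Its values were drawn from the same kind of annotation model that the placing uses, and names were lost singly. In the deposited table the estimated distance also fell in places and rose by several rows at once. The simulated share is therefore no measure of accuracy in the deposited table, which was not tested. The members, the gene lists and the 7-row distance were chosen with earlier results of these data known.

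The 20249 of 20617 rows that averaged 1 normalized count or more were taken to log2 after adding 1. They were fitted by limma 3.58.1 (R 4.3.3, trended variance, Benjamini-Hochberg adjustment), and single genes by an exact two-sided permutation over 252 assignments of libraries. A fold change on this scale understates the change of low genes. On simulated data for OVA against PBS with 200 of 19975 genes changed 4-fold, all 200 were found by limma (6 false calls), by edgeR (9 false calls) and by DESeq2 (18 false calls). The simulated counts had the same dispersion for every gene and no differences in cell content between libraries. Only genes with enough expected reads in the smallest library were changed. Smaller changes were not simulated, so these counts do not show how often such changes would be found in the real libraries. Alternatives were pseudocounts of 0.1 and 4, quantile normalization, a common total, edgeR 4.0.16 and DESeq2 1.42.0 on recovered reads, array weights, no minimum, a minimum mean of 10, each library left out, and other row distances; division by all exons was added after seeing the data. Named were the members and, per list, up to 4 genes with the largest differences among those placed. Isoforms were not analysed here. Sequences and positions are from GENCODE M21 and RefSeq.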

Additional observations from a re-analysis of the deposited data

Results flagged for a closer look

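In 22 sets of 5 libraries (the 8 members, Gimap1os and 2 sums in each group), 3 held a library whose gap to the next, as a share of the set's whole range, exceeded the 95% critical value of 0.71. Chance gives about 1 in 20. Gimap5 in PBS replicate 3, at 953 normalized counts, had a gap of 0.774 of the range, on the low side. Gimap7 in PBS replicate 1, at 5522, had a gap of 0.798 on the high side, and Gimap1os in the same library, at 2427, a gap of 0.815. PBS replicate 3 had the fewest reads of all libraries, 6835697, and the lowest T cell marker level, and PBS replicate 1 the highest. The part of depth and T cell content in these values was not tested.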

How the results depend on the processing

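The count of 0 members past the adjusted threshold held in all alternatives run, and the median log2 difference of the members, -0.03, ran from -0.0930 with names as listed to 0.0840 at the same total, moves smaller than the SD between libraries of 0.222. With 1 library left out it ran from -0.092 to 0.0462. The count over all genes was 1 by limma, 0 with a pseudocount of 0.1, 0 with quantile normalization, 2 with edgeR, 2 with array weights and 167 with DESeq2, and 0 to 135 with 1 library left out, 135 without PBS replicate 5. At an unadjusted p under 0.05, limma had 1978 genes. Of 152 single-member values on the 7-row placing, 137 kept their direction and 15 did not, none passed the threshold, and adjusted p was 0.393 to 1.00. Setting each library to the same total moved the median of all genes from 0.04 to 0.15 and gave Gimap6 0.0546, Gimap7 0.0215 and Gimap9 0.0082. Quantile normalization gave Gimap6 0.0686 and Gimap7 0.0031. Gimap8 was -0.0212 with edgeR, -0.0252 with DESeq2 and -0.0629 with array weights. With 1 library left out, Gimap5 ran from -0.0587 to 0.1748, Gimap6 from -0.1695 to 0.0441, Gimap7 from -0.1450 to 0.0335 and Gimap8 from -0.0941 to 0.0898. With names taken as listed, Gimap3 was 0.3223, Gimap4 -0.2672, Gimap5 -0.0850 and Gimap8 -0.1009. At 6 rows, Gimap3 was 0.1596, Gimap5 -0.0583, Gimap7 0.0008, Gimap8 -0.1045 and Gimap9 0.3223, and at 8 rows Gimap1 -0.0271, Gimap3 0.0162, Gimap4 -0.2136, Gimap6 0.1119, Gimap8 -0.0913 and Gimap9 0.0008, since these are then other genes' values. The cause of the other changes was not tested. No paired analysis was possible because the groups share no replicate number.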
